A study of Mus musculus with 21 samples.

Results

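The genes described here encode glutathione peroxidases (Gpx1, Gpx4 and Gpx8), glutathione transferases (Gsta4 and Gsto1), targets of the transcription factor NRF2 (Nqo1, Hmox1 and Osgin1), NRF2 itself (Nfe2l2) and its inhibitor (Keap1). They were chosen by name, with earlier results of these data known, and all 10 of the 10 were found among the 13202 genes of the table. All 10 also passed the filter on low values, which 12630 genes passed. Glutathione peroxidases reduce peroxides with glutathione, the main thiol of the cell, and glutathione transferases couple glutathione to reactive molecules or use it to reduce them. NRF2 is held in the cytoplasm and sent for degradation by KEAP1. Oxidants and electrophiles modify cysteines of KEAP1, after which NRF2 enters the nucleus and activates genes that carry antioxidant response elements. In T cells, receptor stimulation raises mitochondrial oxidant production, which these enzymes limit.

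RNA of mouse CD8 T cell cultures was sequenced in 21 libraries, 3 in each of 7 groups. T cells were purified from spleens and inguinal nodes by depletion of other cells, were stimulated through the T cell receptor for 48 h, and were harvested for RNA on day 8. Acute groups had no further receptor stimulus and chronic groups had it again every 48 h. The medium of all groups held interleukin 2 at 10 ng/mL and the thiol reductant beta-mercaptoethanol. Polyclonal acute and polyclonal chronic cells were from C57BL/6 mice and were stimulated with plate-bound anti-CD3, with anti-CD28 at the first stimulation. OT-I acute and OT-I chronic cells carry a transgenic receptor for the ovalbumin peptide SIINFEKL. They grew together with melanoma cells of the B16-F10 line, which had been treated beforehand with 1 ng/mL of interferon-γ, without (acute) or with (chronic) the peptide. Vehicle acute, vehicle chronic and NAC chronic cells were from C57BL/6 mice. Their receptor stimulus and the vehicle are not specified here. NAC chronic cells received N-acetylcysteine (NAC), a thiol and cysteine precursor, at 10 mM from the end of the first stimulation. No acute group with NAC was analysed here, so an effect of NAC apart from chronic stimulation was not measured. The labels used here do not give the age of the mice, whether animals were pooled, or whether libraries of a group came from separate cultures, so p-values cover only the spread among the libraries sequenced, which may be technical.

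Reads in genes numbered 5347355 to 25218890 per library. Cd8a, which encodes a CD8 chain, was at 85.2 to 146 RPKM in every library outside the polyclonal chronic group, where it was at 8.30 to 8.63 RPKM. In that group the summed RPKM of 4 CD4 T cell markers was 378 to 403, against 99.5 to 108 in polyclonal acute libraries. The sum of 8 B cell markers there was 220 to 241, against 3.48 to 17.4. All 8 B cell markers were higher in polyclonal chronic cells, and 7 of 8 in OT-I chronic cultures, with sums of 47.9 to 51.6 against 5.48 to 13.0 RPKM. Of all tested genes 28.6% and 22.4% were higher in these comparisons. Melanocyte markers (10 genes) summed to 7239 to 7532 RPKM in OT-I acute and 3929 to 4013 RPKM in OT-I chronic libraries. In polyclonal libraries they summed to 21.9 to 64.9 RPKM and in the vehicle and NAC experiment to 1.01 to 4.38 RPKM, with Tyrp1 at 0 in all of its libraries. Within the vehicle and NAC experiment, 6 myeloid markers summed to 10.9 to 14.9 RPKM in vehicle acute, 24.7 to 27.9 in vehicle chronic and 52.3 to 55.8 in NAC chronic libraries, and 3 NK cell markers to 68.5 to 74.0, 117 to 119 and 191 to 199 RPKM. Most of the NK cell sum was Klrk1, with means of 63.1, 108 and 186 RPKM, whereas Klrb1c was at 8.68, 10.5 and 7.25 RPKM. Most of the myeloid sum was Itgax (means of 2.53, 7.52 and 26.4 RPKM) and Cd68 (9.91, 16.0 and 22.5 RPKM). Itgam had means of 0.653, 1.79 and 4.93 RPKM and Cd14 of 0.157, 1.06 and 0.616 RPKM. Mpeg1 (0.0781, 0.0183 and 0.0514 RPKM) and Adgre1 (0.0341, 0 and 0.0211 RPKM) were near 0 throughout. With NAC against vehicle chronic cells, 1 NK cell marker was higher, 1 lower and 1 did not pass. Of the 6 myeloid markers, 3 were higher, 1 lower and 2 did not pass. Of all tested genes 38.5% were higher and 22.6% lower in this comparison. In this experiment CD4 T cell markers summed to 33.8 to 34.7, 19.4 to 22.3 and 74.9 to 76.8 RPKM. B cell markers summed to 4.90 to 6.36, 3.58 to 4.87 and 10.3 to 11.7 RPKM. Cd4 itself moved more than the CD4 T cell sum, with means of 13.9, 2.39 and 47.9 RPKM, while Zbtb7b had means of 16.0, 17.4 and 22.3 RPKM. All 4 CD4 T cell markers were higher with NAC than in vehicle chronic cells. The sum of 7 genes listed as CD8 T cell markers was 1475 to 1533, 1818 to 1831 and 2279 to 2327 RPKM. That list also holds Cd3e, Cd3d, Cd3g, Cd2 and Cd5, which are not limited to CD8 cells. Means in the same order were 87.1, 145 and 138 RPKM for Cd8a and 179, 88.8 and 184 RPKM for Cd8b1. The sum thus followed neither CD8 chain gene throughout. The sums of myeloid, NK cell, CD4 T cell, B cell and CD8 T cell markers thus differed between NAC chronic libraries and both vehicle groups. Their part in the NAC results given for single genes was not tested. Low genes of polyclonal acute library 2, polyclonal chronic library 2 and OT-I acute library 3 lay above those of the other libraries of their groups, by medians of 0.793, 0.520 and 0.359 on the log2 scale. Polyclonal acute library 2 also had the highest sum of melanocyte markers outside the co-cultures (64.9 RPKM). In bulk RNA, fewer cells of a type and less RNA per cell cannot be told apart.

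**Figure D1:**
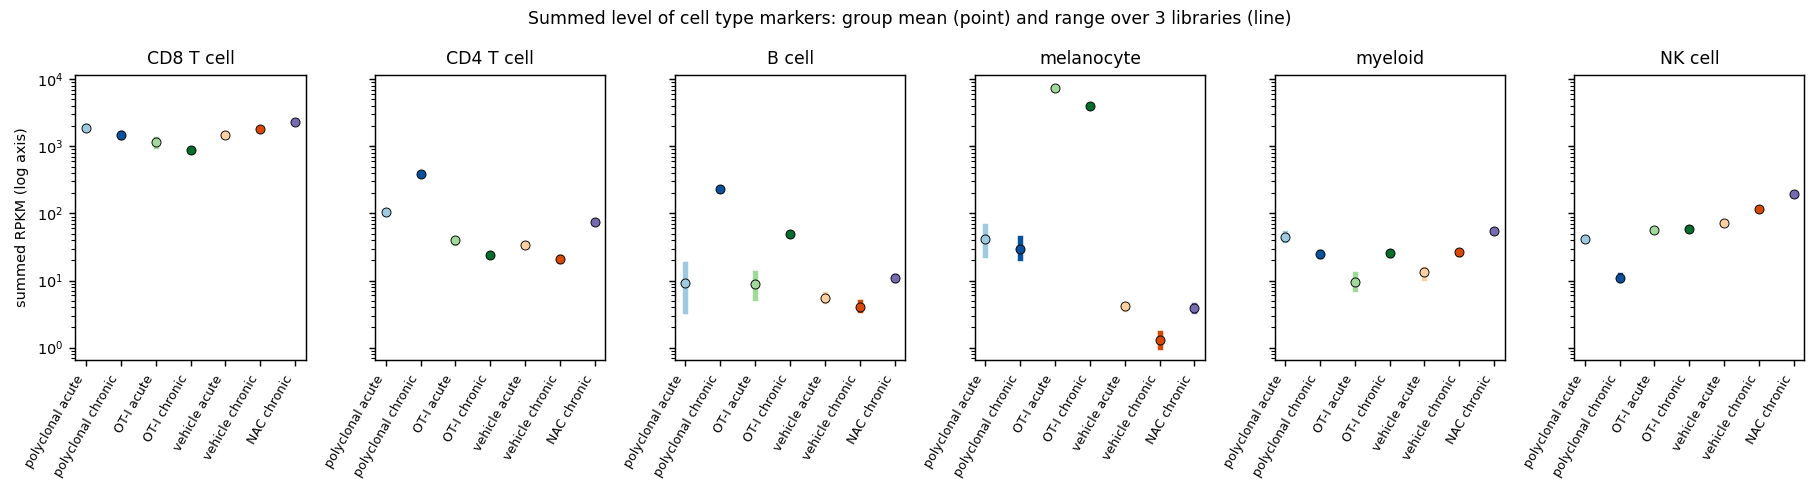
Summed RPKM of cell type markers (log axis) in the 7 groups, with the group mean as a point and the range of the 3 libraries as a line. Melanocyte markers are at 3929 RPKM or more in OT-I co-cultures and at most 64.9 RPKM elsewhere, and the sum of B cell markers is highest in polyclonal chronic libraries, at 220 to 241 RPKM.

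The 10 genes did not move as a block under chronic stimulation. In polyclonal cells 4 rose, 3 fell and 3 did not pass the test (limma, adjusted p under 0.05), while 64.1% of all tested genes changed, 28.6% higher and 35.5% lower. In OT-I co-cultures 2 rose, 6 fell and 2 did not pass, beside 58.6% of all genes (22.4% higher and 36.2% lower). In vehicle-treated cells 2 rose, 5 fell and 3 did not pass, beside 58.9% of all genes (24.5% higher and 34.4% lower). With NAC under chronic stimulation 3 were higher, 4 lower and 3 did not pass, beside 61.1% of all genes (38.5% higher and 22.6% lower). Against vehicle acute cells, NAC chronic cells had 3 genes higher and 7 lower, beside 66.3% of all genes (36.3% higher and 29.9% lower). Libraries did not overlap between groups for 7 of the 10 genes in polyclonal cells (59.6% of all genes), 9 in OT-I co-cultures (65.1%), 8 in vehicle cells (73.1%), 8 with NAC against vehicle chronic cells (75.8%) and 10 with NAC against vehicle acute cells (77.9%). Whether these shares differ from those of all genes was not tested. With voom 32.2% of all genes were higher and 27.1% lower in polyclonal chronic cells. With libraries rescaled to a common median, 27.4% of all genes were higher and 27.9% lower in OT-I chronic cultures, 26.8% and 32.6% with NAC against vehicle chronic cells, and 28.6% and 38.0% with NAC against vehicle acute cells. The rescaling moved the median change of all genes from 0.082 to -0.018 in the NAC against vehicle chronic comparison. The median log2 change of the 10 genes was -0.10 in polyclonal, -0.51 in OT-I and -0.20 in vehicle cells, -0.06 with NAC against vehicle chronic cells and -0.87 against vehicle acute cells. Over all tested genes it was -0.08, -0.12, -0.03, 0.08 and 0.04 in the same order. The chronic effects themselves were compared between experiments. The OT-I effect was higher than the polyclonal one for 1 gene and lower for 4, beside 55.8% of all genes (26.6% higher and 29.2% lower). The vehicle effect was higher than the polyclonal one for 2 and lower for 4, beside 52.4% (25.1% and 27.3%). The OT-I effect was higher than the vehicle one for 4 and lower for 4, beside 58.5% (27.4% and 31.1%). Both NAC comparisons and the vehicle comparison share libraries, so their values are given side by side and are not independent.

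**Figure D2:**
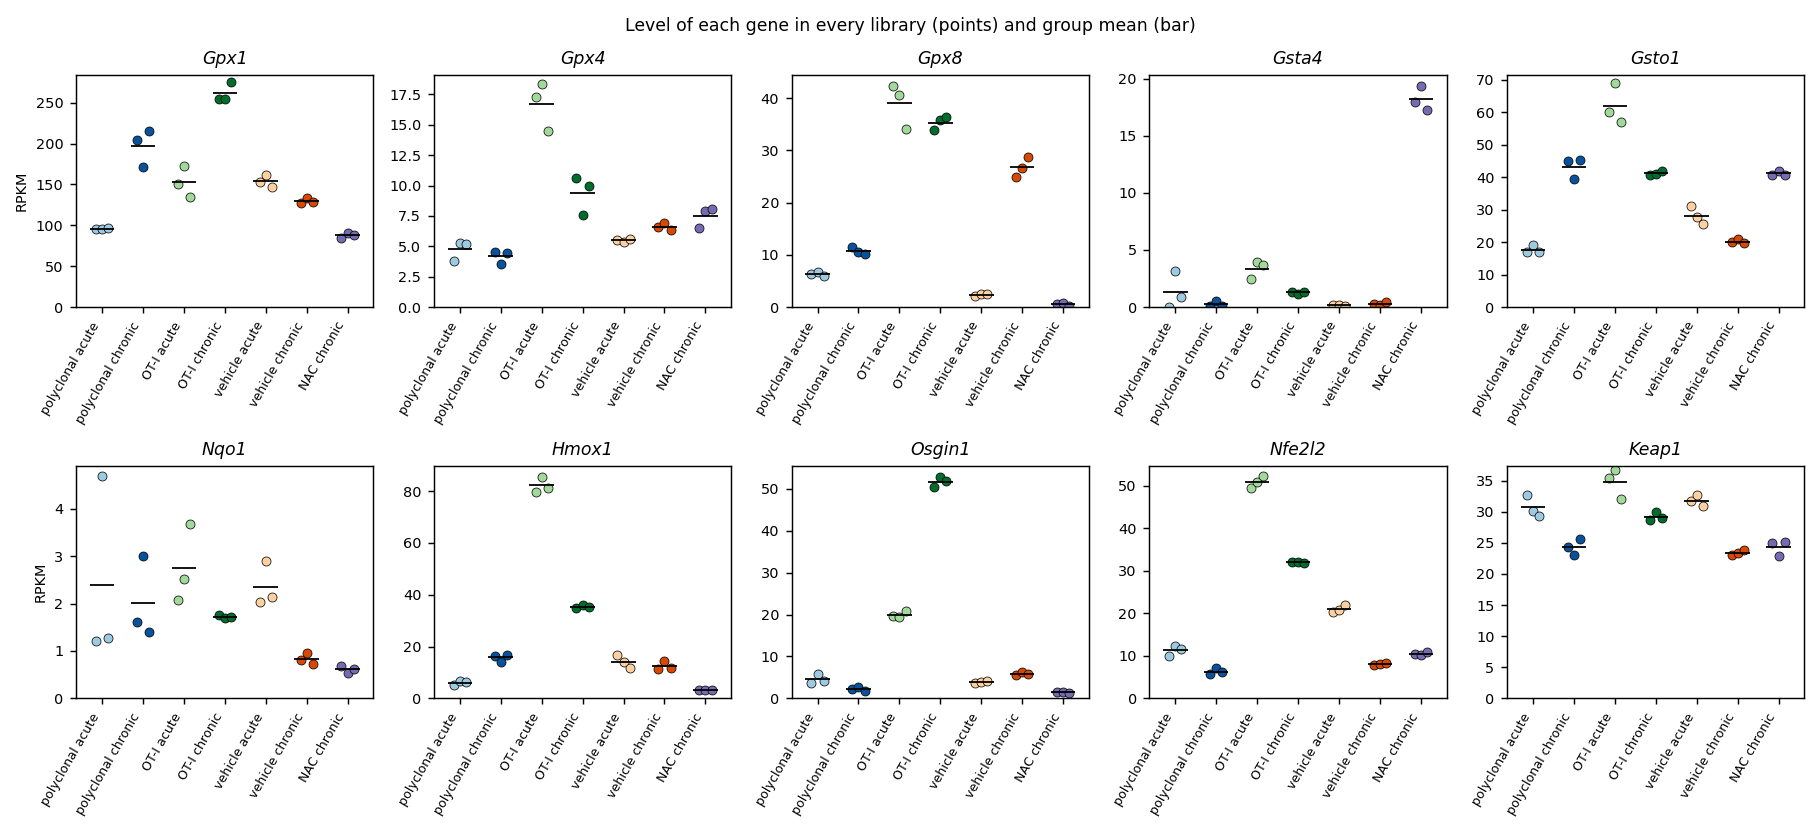
RPKM (linear axis from 0) of the 10 genes in every library, as points, with the mean of each group as a bar. Gpx8 is at 24.9 to 28.7 RPKM in vehicle chronic and under 1 RPKM in NAC chronic libraries, where Gsta4 is at 17.3 to 19.4 RPKM. Keap1 varies least among the 10 genes.

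**Figure D3:**
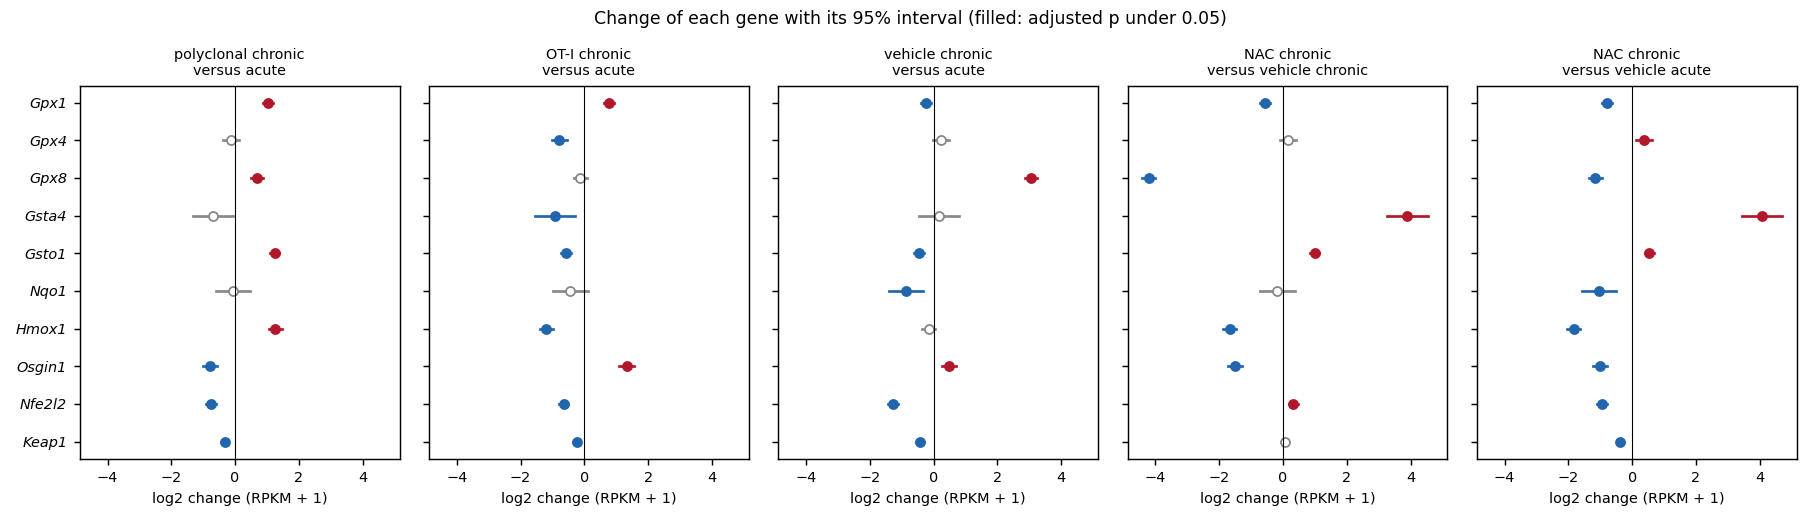
Log2 change on the log2(RPKM + 1) scale with its 95% interval for the 10 genes in 5 comparisons. Filled points passed an adjusted p of 0.05 (red higher, blue lower), and open grey points did not. Nfe2l2 and Keap1 lie left of 0 in all 3 chronic against acute comparisons, and all 10 genes passed with NAC against vehicle acute cells.

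Gpx8 encodes a glutathione peroxidase of the endoplasmic reticulum membrane, which has cysteine in place of selenocysteine at its active site. Its RPKM was 2.10, 2.55 and 2.40 in vehicle acute libraries, 24.9, 26.7 and 28.7 in vehicle chronic libraries, and 0.588, 0.682 and 0.256 in NAC chronic libraries. The 3 groups did not overlap: chronic stimulation came with an 11.4-fold higher mean, and with NAC the level lay below that of acute cells. The rise had a log2 change of 3.05 (SE 0.096, limma adjusted p = 2.81e-16). With NAC against vehicle chronic cells the log2 change was -4.21 (SE 0.096, adjusted p = 5.65e-18), a 52.6-fold lower mean, from 1370 reads in vehicle chronic to 23 reads in NAC chronic libraries. Against vehicle acute cells, NAC chronic cells had a 4.62-fold lower mean (log2 change -1.16, SE 0.096, adjusted p = 1.40e-09). Among the 10 genes, Gpx8 had the largest absolute log2 change in vehicle chronic against acute cells. With NAC against vehicle chronic cells it led on the log2(RPKM + 1) scale, but the ratio of means was larger for Gsta4 (62.6-fold).

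In polyclonal cells Gpx8 was at 6.30, 6.63 and 5.97 RPKM in acute and 11.5, 10.6 and 10.2 RPKM in chronic libraries. It rose there as well (log2 change 0.69, SE 0.096, adjusted p = 2.67e-06), without overlap. In OT-I co-cultures it was at 42.4, 40.6 and 34.1 RPKM without and 33.8, 35.8 and 36.3 RPKM with the peptide, so these groups overlapped. The OT-I change did not pass the test (log2 change -0.13, 95% interval -0.34 to 0.07, adjusted p = 0.237), and without the 3 libraries with raised low genes it was -0.23 (adjusted p = 0.0492). Melanocyte markers were abundant in both OT-I groups, and their part in the Gpx8 level was not tested. The effect of chronic stimulation on Gpx8 was larger in vehicle than in polyclonal cells by 2.36 on the log2 scale (SE 0.14, adjusted p = 1.01e-11), and lower in OT-I than in polyclonal cells by a difference of -0.82 (SE 0.14, adjusted p = 3.22e-05). In the order of group means, from 0.509 RPKM with NAC to 39.0 RPKM in OT-I acute libraries, only OT-I chronic and OT-I acute libraries overlapped among neighbours. B cell and CD4 T cell markers rose with Gpx8 in polyclonal chronic libraries, and their part in its level was not tested.

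Gpx1 encodes the abundant selenium-dependent peroxidase of cytosol and mitochondria, and had the highest level of the 10 genes in every group (RPKM, per length). It was at 95.5, 95.6 and 96.9 RPKM in polyclonal acute and 204, 171 and 215 RPKM in polyclonal chronic libraries. In OT-I co-cultures it was at 150, 173 and 135 RPKM without and 254, 255 and 275 RPKM with the peptide. Both comparisons were without overlap, and Gpx1 rose in both, with log2 changes of 1.02 (SE 0.078, adjusted p = 4.06e-10) and 0.78 (SE 0.078, adjusted p = 4.80e-08). The 2 rises did not differ past the threshold (difference -0.24, 95% interval -0.47 to -0.01, adjusted p = 0.0709). That call turned on single libraries, since the difference was -0.34 without polyclonal chronic library 2 (adjusted p = 0.00671) and -0.33 without OT-I acute library 3 (adjusted p = 0.00900).

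Gpx1 moved the other way in the vehicle experiment. Its RPKM was 153, 162 and 147 in vehicle acute, 127, 134 and 129 in vehicle chronic and 84.9, 90.9 and 88.6 in NAC chronic libraries, with no overlap between any pair of these groups. The fall in vehicle cells was small (log2 change -0.24, SE 0.078, adjusted p = 0.0110), and it did not pass without vehicle acute library 2 (-0.21, adjusted p = 0.0544) or with limma's voom on read numbers (-0.18, adjusted p = 0.116). It was lower still with NAC, by a log2 change of -0.55 against vehicle chronic (SE 0.078, adjusted p = 3.81e-06) and -0.80 against vehicle acute cells (SE 0.078, adjusted p = 1.78e-08). The chronic effect on Gpx1 differed from the polyclonal one by -1.26 in vehicle cells (SE 0.11, adjusted p = 6.56e-09), and the OT-I effect exceeded the vehicle effect by 1.02 (SE 0.11, adjusted p = 1.20e-07). From lowest to highest mean the order was NAC chronic, polyclonal acute, vehicle chronic, OT-I acute, vehicle acute, polyclonal chronic and OT-I chronic, and of the neighbours only OT-I acute and vehicle acute libraries overlapped. B cell and CD4 T cell markers rose with Gpx1 in polyclonal chronic cells and B cell markers in OT-I chronic cultures, and their part in its level was not tested.

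Gpx4 encodes the selenium-dependent peroxidase that reduces lipid hydroperoxides in membranes and restrains ferroptosis. Its recorded level was low, and processed pseudogene copies of it (Gpx4-ps1 and Gpx4-ps2) are annotated in the mouse genome. The counting of reads that match several places is not given here, so the level of Gpx4 is uncertain. In OT-I co-cultures it was at 17.3, 18.4 and 14.5 RPKM without and 10.6, 7.60 and 9.99 RPKM with the peptide, with no overlap, and it fell (log2 change -0.78, SE 0.12, adjusted p = 1.36e-05). Summed melanocyte markers fell in the same libraries, from a mean of 7348 to 3984 RPKM, and their part was not tested. In the other chronic against acute comparisons Gpx4 did not pass: it was at 3.82 to 5.24 RPKM in polyclonal acute, 3.54 to 4.54 in polyclonal chronic, 5.37 to 5.57 in vehicle acute and 6.38 to 6.91 in vehicle chronic libraries. The changes were -0.14 in polyclonal (95% interval -0.39 to 0.11, adjusted p = 0.305) and 0.23 in vehicle cells (-0.02 to 0.48, adjusted p = 0.103, but adjusted p = 0.00543 with only these groups in the fit). With NAC it was at 6.49, 7.87 and 8.04 RPKM, a change of 0.15 from vehicle chronic cells that did not pass (adjusted p = 0.313) and turned to -0.01 with rescaled libraries. Against vehicle acute cells Gpx4 was higher with NAC (log2 change 0.38, SE 0.12, adjusted p = 0.00854), but adjusted p was 0.0941 with rescaled libraries and 0.0733 with voom. The OT-I effect was lower than the polyclonal effect by a difference of -0.63 (SE 0.17, adjusted p = 0.00333) and than the vehicle effect by -1.01 (SE 0.17, adjusted p = 3.43e-05). OT-I acute libraries had the highest level and lay above all other libraries, whereas NAC chronic libraries overlapped both of their neighbours, vehicle chronic and OT-I chronic.

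Gsta4 encodes an alpha-class transferase known for conjugating 4-hydroxynonenal, an aldehyde product of lipid peroxidation, and it was abundant in a single group. It was at 18.0, 19.4 and 17.3 RPKM in NAC chronic libraries, from 260, 268 and 255 reads. Vehicle chronic libraries had 4, 3 and 7 reads (0.262, 0.179 and 0.434 RPKM) and vehicle acute libraries had 3, 2 and 2 reads (0.186, 0.142 and 0.121 RPKM). All NAC libraries thus lay far above all others of the experiment, where 3 reads in a library give 0.179 to 0.213 RPKM. Mean RPKM with NAC was 62.6-fold that of vehicle chronic and 122-fold that of vehicle acute cells, ratios that rest on 14 and 7 reads in the lower groups. The log2 changes were 3.90 (SE 0.30, adjusted p = 8.88e-10) and 4.06 (SE 0.30, adjusted p = 3.17e-10). Between vehicle chronic and vehicle acute libraries, which overlapped, the change of 0.16 did not pass (95% interval -0.47 to 0.80, adjusted p = 0.701).

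Elsewhere Gsta4 was low. Polyclonal acute libraries held 0, 16 and 7 reads (0, 3.12 and 0.852 RPKM), and polyclonal chronic libraries held 1, 4 and 1 reads (0.0969, 0.540 and 0.0689 RPKM). The count of 0 allows a level of up to 0.244 RPKM by counting error alone. The polyclonal groups overlapped, and the change of -0.69 did not pass (SE 0.30, adjusted p = 0.0531). It passed with the replicate number as a block (adjusted p = 0.00941), without polyclonal acute library 1 (-1.18, adjusted p = 2.33e-04) and without polyclonal chronic library 2 (-0.86, adjusted p = 0.0300), whereas without polyclonal acute library 2 it was -0.16 (adjusted p = 0.523). In OT-I co-cultures Gsta4 was at 2.42, 3.98 and 3.66 RPKM without and 1.36, 1.16 and 1.32 RPKM with the peptide, and it fell (log2 change -0.92, SE 0.30, adjusted p = 0.0143). That call was lost with a pseudocount of 0.1 (adjusted p = 0.160) and without OT-I acute library 2 (-0.81, adjusted p = 0.0531). Melanocyte markers fell in the same libraries, and their part was not tested. The OT-I effect was lower than the vehicle effect by a difference of -1.08 (SE 0.43, adjusted p = 0.0376), a call lost in 10 of the 12 fits that left out 1 library.

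Gsto1 encodes an omega-class transferase with a cysteine at its active site, which reduces glutathione-protein mixed disulfides and dehydroascorbate. It was at 17.0, 19.1 and 17.0 RPKM in polyclonal acute and 45.0, 39.3 and 45.2 RPKM in polyclonal chronic libraries. It rose there without overlap, by a log2 change of 1.24 (SE 0.072, adjusted p = 5.20e-12). In OT-I co-cultures it fell from 60.1, 69.0 and 57.0 RPKM to 40.8, 41.0 and 41.8 RPKM (log2 change -0.57, SE 0.072, adjusted p = 1.07e-06). Vehicle acute libraries had 31.1, 27.6 and 25.5 RPKM, vehicle chronic libraries 20.0, 20.8 and 19.6 RPKM, and NAC chronic libraries 40.8, 41.8 and 40.8 RPKM, with no overlap. Gsto1 thus fell under chronic stimulation with vehicle (log2 change -0.45, SE 0.072, adjusted p = 1.54e-05) and was higher with NAC than in vehicle chronic cells (0.99, SE 0.072, adjusted p = 2.78e-10) and vehicle acute cells (0.54, SE 0.072, adjusted p = 1.42e-06). The OT-I effect was lower than the polyclonal one by a difference of -1.81 (SE 0.10, adjusted p = 7.13e-12), and the vehicle effect by -1.69 (SE 0.10, adjusted p = 2.20e-11). The OT-I and vehicle effects were not shown to differ (difference -0.12, 95% interval -0.33 to 0.09, adjusted p = 0.329). In the order of means polyclonal acute was lowest (17.7 RPKM), and NAC chronic, OT-I chronic and polyclonal chronic libraries (41.1, 41.2 and 43.2 RPKM) overlapped their neighbours. The rises of B cell and CD4 T cell markers in polyclonal chronic libraries and the fall of melanocyte markers in OT-I chronic libraries moved with Gsto1, and their part was not tested.

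Hmox1 encodes haem oxygenase 1, which breaks down haem and is induced by NRF2 and repressed by the haem-sensing factor BACH1. It was at 79.7, 85.6 and 81.2 RPKM in OT-I acute and 34.7, 36.1 and 35.1 RPKM in OT-I chronic libraries, the highest levels of any group. It fell between them by a log2 change of -1.20 (SE 0.096, adjusted p = 2.16e-09), a 2.33-fold lower mean, while summed melanocyte markers went from 7239 to 7532 RPKM to 3929 to 4013 RPKM. The part of melanoma RNA in this fall was not tested. In polyclonal cells the direction was opposite: 5.30, 6.53 and 6.14 RPKM in acute and 16.2, 14.2 and 16.9 RPKM in chronic libraries, without overlap (log2 change 1.26, SE 0.096, adjusted p = 3.99e-10). In the same libraries B cell markers summed to 3.48 to 17.4 RPKM (acute) and 220 to 241 RPKM (chronic) and CD4 T cell markers to 99.5 to 108 and 378 to 403 RPKM, and their part was not tested. The OT-I and polyclonal effects differed by -2.46 (SE 0.14, adjusted p = 5.80e-12).

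In the vehicle experiment Hmox1 was at 16.6, 14.2 and 11.8 RPKM in acute and 11.5, 14.3 and 11.7 RPKM in chronic libraries, which overlapped. The change of -0.16 did not pass (95% interval -0.37 to 0.04, adjusted p = 0.155), although it did without vehicle acute library 3 (-0.28, adjusted p = 0.0131) or vehicle chronic library 2 (-0.26, adjusted p = 0.0375). With NAC it was at 3.24, 3.30 and 3.17 RPKM, the lowest level of the 7 groups and without overlap with any other. Hmox1 was lower with NAC by a log2 change of -1.66 against vehicle chronic (SE 0.096, adjusted p = 8.49e-12) and -1.83 against vehicle acute cells (SE 0.096, adjusted p = 1.22e-12), means lower by 3.86-fold and 4.38-fold. The vehicle effect was lower than the polyclonal one by a difference of -1.43 (SE 0.14, adjusted p = 2.46e-08), and the OT-I effect lower than the vehicle one by -1.03 (SE 0.14, adjusted p = 1.92e-06). Neighbours in the order of means that overlapped were vehicle chronic, vehicle acute and polyclonal chronic.

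Osgin1 encodes an NRF2-responsive regulator of cell growth and death that is induced by oxidative stress. It was at 19.7, 19.5 and 20.8 RPKM in OT-I acute and 50.4, 52.9 and 51.8 RPKM in OT-I chronic libraries, a rise of 1.33 on the log2 scale (SE 0.11, adjusted p = 1.98e-09) in the same libraries in which Hmox1 fell. In these libraries B cell markers summed to 5.48 to 13.0 RPKM (acute) and 47.9 to 51.6 RPKM (chronic) and melanocyte markers to means of 7348 and 3984 RPKM, and their part was not tested. In polyclonal cells it fell from 3.66, 5.72 and 4.16 RPKM to 2.13, 2.64 and 1.82 RPKM (log2 change -0.78, SE 0.11, adjusted p = 2.02e-06), where Hmox1 rose. With vehicle it was at 3.76, 3.92 and 4.09 RPKM in acute and 5.66, 6.31 and 5.69 RPKM in chronic libraries, a small rise (log2 change 0.48, SE 0.11, adjusted p = 5.50e-04). NAC chronic libraries had 1.59, 1.49 and 1.22 RPKM, below every other library of the series. The log2 changes with NAC were -1.50 against vehicle chronic (SE 0.11, adjusted p = 1.94e-10) and -1.02 against vehicle acute cells (SE 0.11, adjusted p = 4.47e-08). Chronic effects on Osgin1 differed between all pairs of experiments: OT-I from polyclonal by 2.10 (SE 0.15, adjusted p = 2.88e-10), vehicle from polyclonal by 1.26 (SE 0.15, adjusted p = 5.64e-07) and OT-I from vehicle by 0.84 (SE 0.15, adjusted p = 7.05e-05). Vehicle acute and polyclonal acute libraries overlapped in level, as did polyclonal acute and vehicle chronic libraries. B cell and CD4 T cell markers rose in the polyclonal chronic libraries in which Osgin1 fell, and their part was not tested.

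Nqo1 encodes a quinone reductase that is often used as a readout of NRF2 activity, and it was the lowest of the NRF2 targets, with 12 to 78 reads per library. In vehicle cells it fell from 2.03, 2.89 and 2.13 RPKM to 0.808, 0.955 and 0.726 RPKM under chronic stimulation, without overlap (log2 change -0.87, SE 0.26, adjusted p = 0.00745). With NAC it was at 0.684, 0.536 and 0.627 RPKM, lower than in vehicle acute cells (log2 change -1.04, SE 0.26, adjusted p = 0.00151). Against vehicle chronic cells the change of -0.18 did not pass (95% interval -0.73 to 0.37, adjusted p = 0.599), although the libraries did not overlap, and it passed with only these groups in the fit (adjusted p = 0.0290). OT-I libraries had 2.08, 2.52 and 3.68 RPKM without and 1.76, 1.69 and 1.71 RPKM with the peptide (log2 change -0.45, SE 0.26, adjusted p = 0.152). This change passed with only the OT-I groups in the fit (adjusted p = 0.0333) and without the 3 libraries with raised low genes (-0.28, adjusted p = 0.0203). Polyclonal acute libraries had 1.21, 4.70 and 1.28 RPKM and polyclonal chronic libraries 1.61, 3.00 and 1.40 RPKM, and in both groups library 2 was the high one. The polyclonal change of -0.06 did not pass (95% interval -0.61 to 0.48, adjusted p = 0.845) and was 0.39 without polyclonal acute library 2 (adjusted p = 0.0723). The vehicle and polyclonal effects differed by -0.80, which did not pass (SE 0.37, adjusted p = 0.0771) but did without polyclonal acute library 2 (-1.25, adjusted p = 2.50e-04). The OT-I and polyclonal effects differed by -0.38 (SE 0.37, adjusted p = 0.403), which was -0.83 without that library (adjusted p = 0.00676). In the order of means, NAC chronic (0.616 RPKM) and vehicle chronic (0.830 RPKM) lay below all other groups, and OT-I chronic, polyclonal chronic, vehicle acute, polyclonal acute and OT-I acute libraries overlapped from one neighbour to the next.

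Nfe2l2, which encodes NRF2, fell in all 3 chronic against acute comparisons, each time without overlap. It went from 20.3, 20.9 and 21.9 RPKM to 7.78, 8.06 and 8.42 RPKM in vehicle cells, a 2.60-fold lower mean (log2 change -1.28, SE 0.068, adjusted p = 1.59e-12). Polyclonal libraries had 10.0, 12.3 and 11.6 RPKM in acute and 5.69, 7.11 and 6.09 RPKM in chronic cells (log2 change -0.76, SE 0.068, adjusted p = 5.40e-09). OT-I libraries had 49.4, 50.9 and 52.4 RPKM without and 32.2, 32.2 and 31.9 RPKM with the peptide (log2 change -0.65, SE 0.068, adjusted p = 9.64e-08), where melanocyte markers fell too and their part was not tested. NAC chronic libraries had 10.5, 10.1 and 10.8 RPKM, all above vehicle chronic and below vehicle acute libraries. Relative to vehicle chronic cells Nfe2l2 was higher with NAC by a log2 change of 0.33 (SE 0.068, adjusted p = 2.73e-04), and relative to vehicle acute cells lower, by -0.94 (SE 0.068, adjusted p = 1.86e-10). The fall was larger in vehicle than in polyclonal cells (difference -0.52, SE 0.097, adjusted p = 1.31e-04) and than in OT-I co-cultures (OT-I minus vehicle 0.63, SE 0.097, adjusted p = 1.32e-05). It was not shown to differ between OT-I and polyclonal cells (difference 0.11, 95% interval -0.10 to 0.31, adjusted p = 0.371). The order of means ran from 6.29 RPKM in polyclonal chronic to 50.9 RPKM in OT-I acute libraries, and of the neighbours only NAC chronic and polyclonal acute libraries overlapped. B cell and CD4 T cell markers rose in the polyclonal chronic libraries in which Nfe2l2 fell, and their part was not tested.

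Keap1, which encodes the adaptor that targets NRF2 for ubiquitination, varied least, with group means between 23.4 and 34.7 RPKM, a 1.48-fold span. It was at 32.7, 30.2 and 29.3 RPKM in polyclonal acute and 24.3, 23.1 and 25.6 RPKM in polyclonal chronic libraries (log2 change -0.32, SE 0.054, adjusted p = 2.69e-05). In vehicle cells it fell from 31.8, 32.7 and 30.9 RPKM to 23.1, 23.3 and 23.8 RPKM (log2 change -0.43, SE 0.054, adjusted p = 9.22e-07). OT-I libraries had 35.4, 36.7 and 32.1 RPKM without and 28.7, 29.9 and 29.0 RPKM with the peptide (log2 change -0.24, SE 0.054, adjusted p = 7.89e-04). These 3 falls were without overlap, but the OT-I one (median change of all genes -0.12) did not pass with rescaled libraries (-0.15, adjusted p = 0.0603) or voom (-0.15, adjusted p = 0.0901). With NAC Keap1 was at 24.9, 22.9 and 25.2 RPKM, which overlapped vehicle chronic libraries (log2 change 0.06, 95% interval -0.06 to 0.17, adjusted p = 0.412, and -0.11 with rescaled libraries) and lay below vehicle acute libraries (-0.37, SE 0.054, adjusted p = 4.53e-06). The OT-I effect exceeded the vehicle effect by 0.19 (SE 0.077, adjusted p = 0.0444), a call lost in 9 of the 12 fits that left out 1 library. The OT-I and polyclonal effects differed by 0.08 (95% interval -0.08 to 0.24, adjusted p = 0.383) and the vehicle and polyclonal effects by -0.10 (95% interval -0.26 to 0.06, adjusted p = 0.282). From OT-I chronic libraries upwards neighbours in the order of means overlapped, as did vehicle chronic, polyclonal chronic and NAC chronic libraries. Where Keap1 fell, B cell and CD4 T cell markers rose in polyclonal chronic libraries and melanocyte markers fell in OT-I chronic libraries. Their part was not tested.

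RefSeq promoter sequences (build GRCm38.p6, 250 bases before to 50 bases after the start) were at hand for 8 of the 10 genes, with 11 starts in all, and not for Gsta4 and Hmox1. The series was processed on mm9, so these positions are not those of its files. They were searched on both strands for TGACNNNGC, the core of the antioxidant response element, and for TGANTCA, the site of AP-1 factors, which shares its first 3 letters with the former. The former was in 12.4% and the latter in 7.81% of all 32851 promoters listed. Of the 11 starts, that of Nfe2l2 held the antioxidant response element core, starting 240 bases before the start, and that of Osgin1 held an AP-1 match, starting 97 bases before the start. Neither was found in the 300 bases of Gpx8, Gpx1, Gpx4, Gsto1, Nqo1 or Keap1. The promoters of Nfe2l2, which fell in all 3 experiments, of Osgin1, whose direction differed between experiments, and of Gpx8, which was 52.6-fold lower with NAC than in vehicle chronic cells, are shown with matches in capitals (chr2:75704614-75704913 on the minus strand, chr8:119436897-119437196 on the plus strand and chr13:113046339-113046638 on the minus strand). A match is a description of the letters and not evidence of binding.
Nfe2l2: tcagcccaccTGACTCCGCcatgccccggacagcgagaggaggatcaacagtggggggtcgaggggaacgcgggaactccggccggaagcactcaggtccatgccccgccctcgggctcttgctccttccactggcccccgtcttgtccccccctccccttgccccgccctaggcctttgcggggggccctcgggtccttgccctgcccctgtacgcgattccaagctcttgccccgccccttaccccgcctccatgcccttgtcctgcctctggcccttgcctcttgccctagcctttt
Osgin1: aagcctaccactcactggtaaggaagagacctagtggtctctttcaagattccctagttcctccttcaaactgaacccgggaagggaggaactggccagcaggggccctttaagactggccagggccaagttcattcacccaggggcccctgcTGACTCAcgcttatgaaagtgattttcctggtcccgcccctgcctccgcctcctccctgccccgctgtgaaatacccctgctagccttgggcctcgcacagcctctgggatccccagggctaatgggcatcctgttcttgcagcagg
Gpx8: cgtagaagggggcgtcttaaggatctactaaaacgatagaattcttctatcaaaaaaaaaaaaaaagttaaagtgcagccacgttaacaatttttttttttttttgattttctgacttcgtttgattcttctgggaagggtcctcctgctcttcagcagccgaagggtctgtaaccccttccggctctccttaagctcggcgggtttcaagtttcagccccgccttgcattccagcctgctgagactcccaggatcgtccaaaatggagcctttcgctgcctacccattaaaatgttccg

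Other members of both enzyme families were taken from lists. Of 5 further peroxidase genes 2 were in the table and tested. Gpx3, an extracellular peroxidase, rose in polyclonal chronic cells from 0.798 ± 0.271 to 4.24 ± 0.220 RPKM (mean ± SD, n = 3 libraries; limma, adjusted p = 1.26e-08), in the libraries with raised B cell and CD4 T cell markers. Gpx7, like Gpx8 an enzyme of the endoplasmic reticulum with a cysteine at its active site, was higher with NAC than in vehicle chronic cells (from 0.888 ± 0.141 to 4.35 ± 0.141 RPKM, adjusted p = 9.81e-06), opposite to Gpx8. Of 23 further transferase genes 14 were tested. In polyclonal chronic cells 5 rose and 3 fell, in OT-I co-cultures 3 rose and 8 fell, and in vehicle cells 6 rose and 5 fell. With NAC against vehicle chronic cells 5 were higher and 4 lower. Of all genes 28.6%, 22.4%, 24.5% and 38.5% were higher and 35.5%, 36.2%, 34.4% and 22.6% lower. The median log2 changes of the transferases in these comparisons were 0.03, -0.38, 0.02 and -0.01, beside -0.08, -0.12, -0.03 and 0.08 for all genes.

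The theta-class transferase gene Gstt1 rose in all 3 chronic comparisons, from 3.74 ± 0.572 to 39.6 ± 2.84 RPKM in polyclonal, from 4.73 ± 0.642 to 11.6 ± 0.702 in OT-I and from 0.881 ± 0.217 to 19.4 ± 1.58 in vehicle cells (adjusted p = 9.21e-16, 1.67e-08 and 2.05e-16). Its relative Gstt3 rose in polyclonal cells from 5.19 ± 0.318 to 35.5 ± 2.22 RPKM (adjusted p = 1.51e-15). Mean Gstt3 was also higher in vehicle chronic than acute (8.33 against 2.31 RPKM) and in OT-I chronic than acute libraries (8.82 against 6.78 RPKM). The mu-class gene Gstm5 rose in vehicle cells from 0.943 ± 0.0673 to 26.2 ± 1.26 RPKM (adjusted p = 1.39e-17) and was lower with NAC, at 6.29 ± 0.973 RPKM (adjusted p = 1.38e-12). It fell in OT-I co-cultures, from a mean of 14.7 to 8.10 RPKM (adjusted p = 9.64e-07), and rose in polyclonal cells (log2 change 0.51, limma adjusted p = 1.30e-04). Mgst2, a microsomal transferase gene, was lower in OT-I chronic cultures (from 129 ± 25.1 to 32.6 ± 1.47 RPKM, adjusted p = 1.38e-10), and it also fell in polyclonal and vehicle cells. With NAC Mgst2 was higher than in vehicle chronic cells, at 63.0 ± 3.08 against 12.1 ± 3.08 RPKM (adjusted p = 4.46e-12). Like Gpx8, Gstm5 was thus high in vehicle chronic and lower in NAC chronic cells, and like Gsta4 and Gsto1, Mgst2 was higher with NAC. Transferase genes of a class are close copies, between which reads may be split wrongly.

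Among 31 tested targets of NRF2 outside the 10 genes, 11 rose and 11 fell in polyclonal cells, 8 rose and 12 fell in OT-I co-cultures and 5 rose and 16 fell in vehicle cells. With NAC 9 were higher and 17 lower than in vehicle chronic cells. Of all genes 28.6%, 22.4%, 24.5% and 38.5% were higher and 35.5%, 36.2%, 34.4% and 22.6% lower, with 26.8% and 32.6% in the NAC comparison after rescaling. The medians of the targets were 0.01, -0.05, -0.20 and -0.26, beside -0.08, -0.12, -0.03 and 0.08 for all genes. The aldo-keto reductase gene Akr1b8 rose in polyclonal cells from 1.81 ± 1.37 to 20.9 ± 1.65 RPKM (adjusted p = 5.84e-11) and in vehicle cells from 0.263 ± 0.167 to 2.56 ± 0.0739 RPKM (adjusted p = 2.85e-06). Gclm, which encodes the modifier subunit of the enzyme that starts glutathione synthesis, fell in vehicle cells from 29.3 ± 0.555 to 9.75 ± 0.880 RPKM (adjusted p = 4.56e-14). Polyclonal cells had a fall of Gclm too, from a mean of 14.1 to 10.4 RPKM (adjusted p = 1.31e-05). OT-I means were 20.3 (acute) and 17.6 RPKM (chronic). Srxn1, which encodes sulfiredoxin, was lower with NAC (from 24.0 ± 0.273 to 5.00 ± 0.194 RPKM, adjusted p = 6.51e-17). It rose in polyclonal and vehicle cells and fell in OT-I co-cultures, with log2 changes of 0.61, 1.14 and -0.55 (adjusted p = 4.75e-09, 3.01e-13 and 4.73e-08). The epoxide hydrolase gene Ephx1 was higher with NAC, at 47.3 ± 1.91 against 3.81 ± 0.431 RPKM in vehicle chronic cells (adjusted p = 4.01e-16). It rose in polyclonal cells from 3.31 ± 0.522 to 12.5 ± 1.55 RPKM (adjusted p = 1.21e-11) and fell in OT-I co-cultures from 41.5 ± 1.09 to 14.4 ± 0.200 RPKM (adjusted p = 2.06e-10). Slc7a11, which encodes the cystine importer subunit xCT, fell in OT-I co-cultures from 8.11 ± 1.41 to 2.38 ± 0.257 RPKM (adjusted p = 5.93e-07). It rose in polyclonal and vehicle cells, where it stayed under a mean of 1 RPKM (log2 changes 0.48 and 0.41, adjusted p = 0.0195 and 0.0449). Summed melanocyte markers fell in the OT-I libraries from a mean of 7348 to 3984 RPKM, and their part in these OT-I falls was not tested.

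**Figure D4:**
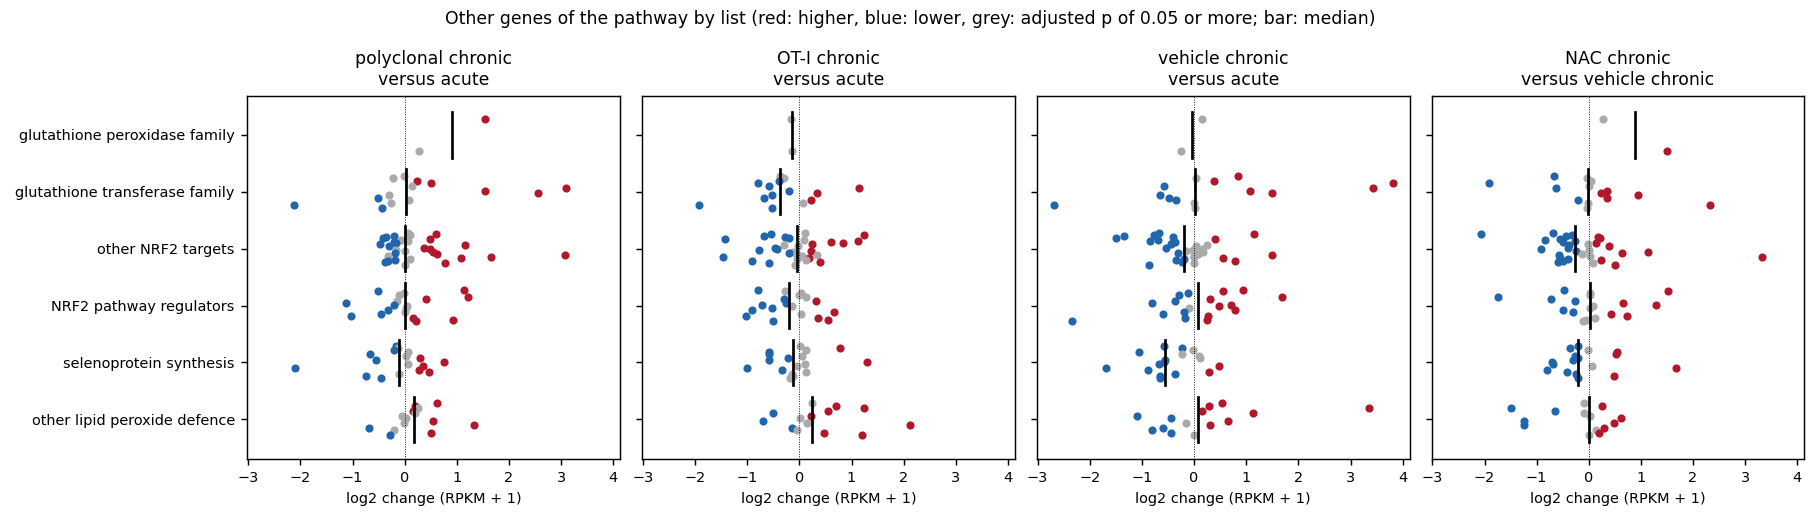
Log2 change on the log2(RPKM + 1) scale of each tested gene (point) of 6 lists, without the 10 genes, in 4 comparisons, with the median of each list as a bar. Red points were higher, blue points lower and grey points did not pass. All lists hold genes that moved in both directions, except the 2 genes of the peroxidase list, of which none was lower.

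Of 18 tested regulators of the pathway 6 rose and 6 fell in polyclonal cells, 4 rose and 8 fell in OT-I co-cultures, 9 rose and 8 fell in vehicle cells, and 5 were higher and 6 lower with NAC than in vehicle chronic cells. Of all genes 28.6%, 22.4%, 24.5% and 38.5% were higher and 35.5%, 36.2%, 34.4% and 22.6% lower in these comparisons. The medians of the regulators were 0.00, -0.19, 0.08 and 0.02, beside -0.08, -0.12, -0.03 and 0.08 for all genes. Maff, a small MAF protein gene whose product pairs with NRF2 or BACH1 on DNA, rose in polyclonal cells (from 1.52 ± 0.257 to 4.79 ± 0.483 RPKM, adjusted p = 5.99e-09) and vehicle cells (from 1.96 ± 0.516 to 8.47 ± 0.508 RPKM, adjusted p = 3.56e-11). With NAC Maff was at 1.82 ± 0.197 RPKM (adjusted p = 2.89e-11 against vehicle chronic cells). The NRF2 relative Nfe2l1 rose in polyclonal cells from 22.8 ± 2.06 to 51.5 ± 3.10 RPKM (adjusted p = 4.51e-13) and in vehicle cells (log2 change 0.94, adjusted p = 1.30e-11). It fell in OT-I co-cultures, from a mean of 119 to 67.9 RPKM (adjusted p = 3.55e-10). The haematopoietic relative Nfe2 was higher with NAC, at 4.23 ± 0.164 against 0.820 ± 0.0749 RPKM (adjusted p = 4.16e-07). In OT-I co-cultures Sqstm1, whose product p62 binds KEAP1, fell from 829 ± 47.2 to 441 ± 8.81 RPKM (adjusted p = 7.34e-11), and Usp11, a deubiquitinase gene, from 14.7 ± 1.26 to 6.67 ± 0.0376 RPKM (adjusted p = 8.49e-08). Melanocyte markers fell in these libraries from a mean of 7348 to 3984 RPKM, and their part was not tested. Sqstm1 also fell in polyclonal cells (log2 change -0.31, adjusted p = 9.31e-05) but rose in vehicle cells, from a mean of 150 to 260 RPKM (adjusted p = 2.83e-10). Usp11 fell in polyclonal cells too (log2 change -1.02, adjusted p = 5.02e-08) and rose in vehicle cells (0.27, adjusted p = 0.0391). The retinoid receptor gene Rxra fell in vehicle cells from 7.58 ± 0.379 to 0.684 ± 0.0958 RPKM (adjusted p = 1.85e-15) and in OT-I co-cultures (log2 change -0.50, adjusted p = 3.31e-05), and rose in polyclonal cells (0.21, adjusted p = 0.0360).

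Selenoprotein synthesis genes and other selenoproteins, on which Gpx1 and Gpx4 depend or to whose class they belong, numbered 17 tested. In polyclonal cells 5 rose and 7 fell, in OT-I co-cultures 2 rose and 6 fell, and in vehicle cells 2 rose and 11 fell. Of all genes 28.6%, 22.4% and 24.5% were higher and 35.5%, 36.2% and 34.4% lower in these comparisons. With NAC 4 were higher and 11 lower than in vehicle chronic cells, beside 38.5% and 22.6% of all genes (26.8% and 32.6% rescaled). The medians in the 4 comparisons were -0.10, -0.13, -0.55 and -0.21, beside -0.08, -0.12, -0.03 and 0.08 for all genes. Sepp1, which encodes the selenium transport protein selenoprotein P, fell in all 3 chronic comparisons: from 77.8 ± 4.55 to 17.4 ± 1.07 RPKM in polyclonal, from 53.7 ± 1.84 to 26.4 ± 0.400 in OT-I and from 63.2 ± 5.71 to 19.0 ± 0.629 in vehicle cells (adjusted p = 1.04e-16, 5.03e-11 and 4.45e-15). With NAC Sepp1 was at 62.9 ± 3.90 RPKM (adjusted p = 8.53e-15 against vehicle chronic cells). Its receptor gene Lrp8 rose in polyclonal cells from 4.99 ± 0.352 to 9.21 ± 1.54 RPKM (adjusted p = 1.89e-06) and in OT-I co-cultures from 2.19 ± 0.503 to 6.78 ± 0.298 RPKM (adjusted p = 1.79e-09). In vehicle cells Lrp8 fell, from a mean of 6.92 to 4.28 RPKM (adjusted p = 5.61e-05). Eefsec, the elongation factor gene for selenocysteine, fell in vehicle cells from 12.4 ± 1.07 to 5.44 ± 0.461 RPKM (adjusted p = 1.33e-11). Mean Eefsec was also lower in OT-I chronic than acute libraries (19.7 against 30.1 RPKM), and was 9.12 (acute) and 9.56 RPKM (chronic) in polyclonal cells. Sepw1, a small selenoprotein gene, was lower with NAC, from 132 ± 1.97 to 74.5 ± 1.66 RPKM (adjusted p = 1.57e-06). Sepw1 fell in vehicle and OT-I chronic cells (log2 changes -0.88 and -0.33) and rose in polyclonal cells (0.28, adjusted p = 0.0301).

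Of 14 tested genes of other lipid peroxide and oxidant defence or of iron and lipid oxidation, 6 rose and 2 fell in polyclonal cells, 7 rose and 3 fell in OT-I co-cultures, 7 rose and 5 fell in vehicle cells, and 5 were higher and 4 lower with NAC. Of all genes 28.6%, 22.4%, 24.5% and 38.5% were higher and 35.5%, 36.2%, 34.4% and 22.6% lower. The medians of the list were 0.17, 0.23, 0.07 and 0.01, beside -0.08, -0.12, -0.03 and 0.08 for all genes. The transferrin receptor gene Tfrc rose in polyclonal cells from 46.7 ± 1.49 to 119 ± 2.72 RPKM (adjusted p = 1.24e-14) and in OT-I co-cultures from 26.1 ± 1.68 to 117 ± 5.67 RPKM (adjusted p = 3.71e-17). Mean Tfrc was 94.4 RPKM in vehicle acute, 117 RPKM in vehicle chronic and 48.9 RPKM in NAC chronic libraries. Alox5, the 5-lipoxygenase gene, rose in vehicle cells from 0.0839 ± 0.0733 to 10.1 ± 0.242 RPKM (adjusted p = 8.91e-13), was lower with NAC at 2.97 ± 0.293 RPKM (adjusted p = 3.08e-07), and rose in OT-I co-cultures from 1.19 ± 0.497 to 4.05 ± 0.137 RPKM (adjusted p = 4.96e-06). The catalase gene Cat fell in polyclonal cells from 46.4 ± 3.03 to 28.5 ± 1.23 RPKM (adjusted p = 2.33e-10). Mean Cat was also lower in vehicle chronic than acute (32.2 against 48.9 RPKM) and in OT-I chronic than acute libraries (30.1 against 33.2 RPKM). Gch1, which starts tetrahydrobiopterin synthesis, rose in vehicle cells from 4.26 ± 0.370 to 10.5 ± 0.180 RPKM (adjusted p = 8.03e-10) and fell in OT-I co-cultures (log2 change -0.51, adjusted p = 5.98e-05). Slc3a2, the partner of Slc7a11 and of other amino acid transporters, was lower with NAC, from 129 ± 0.878 to 53.5 ± 0.879 RPKM (adjusted p = 4.63e-13). It rose in polyclonal and vehicle cells (log2 changes 0.54 and 0.66) and fell in OT-I co-cultures (-0.70, adjusted p = 5.38e-09).

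Over the 21 libraries, the genes with the most similar pattern were found by Pearson's r of log2(RPKM + 1), as a description in which libraries of a group share their culture condition. Gpx8 was most like the phosphatase gene Dusp3 (r = 0.978), Rabgef1 (0.961) and the collagen prolyl hydroxylase gene P4ha1 (0.942). For Hmox1 the nearest were the tRNA synthetase genes Aars (0.990) and Gars (0.984) and the mitochondrial chaperone gene Hspa9 (0.987). Gpx1 was nearest to Nmt1 (0.972), Rpn2 (0.970) and Fkbp1a (0.968), and Gsta4 to Dcaf17 (0.963), St6galnac3 (0.959) and Pomt1 (0.953). For Osgin1 they were Hs2st1 (0.971) and the cell death genes Bid (0.970) and Mlkl (0.968). Nfe2l2 was nearest to Metrn (0.978), Chmp6 (0.976) and Vegfb (0.973), Gsto1 to Pnkd (0.957), Grsf1 (0.940) and Mgmt (0.918), and Keap1 to Pih1d1 (0.950), Rnf13 (0.949) and Mgat4a (0.932). Gpx4 was nearest to Cfap36 (0.963), Fam92a (0.958) and Smim10l1 (0.955), and Nqo1 to March3 (0.957), Slc5a6 (0.917) and Fgd6 (0.899). None of the 10 genes was among the 3 nearest of another.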

How the data were processed

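RNA was sequenced in 21 libraries of 7 groups, which came from the titles in the labels. Per the labels' protocols, RNA was taken with Trizol and its poly-A+ fraction went into a NEBNext Ultra library kit. Per the submitters' processing notes, bcl2fastq 2.17, HTSeq, edgeR and the build mm9 were used, with no role or order given. The aligner, annotation and strand setting are not given here, so reads of a gene and of an antisense or overlapping one (Gm16754 for Keap1) cannot be told apart. Values are RPKM (reads scaled by gene length and library size) in a single table that the authors deposited, with a column per library. All columns were matched by title.

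Whole reads were recovered from the RPKM steps for 100% of genes, within 0.001 reads, and their sums gave the depths of 5347355 to 25218890. Libraries of a group differed by more than sampling noise (mean chi-square over genes 1.52 to 54.6 and r 0.985 to 0.999 in 21 pairs). Tests used log2(RPKM + 1), a pseudocount of 1, which understates changes of low genes, for the 12630 genes that reached RPKM 1 in 3 libraries. One limma fit (version 3.58.1, R 4.3.3, group means, empirical Bayes trend, 14 residual degrees of freedom, no block) gave two-sided p-values, adjusted by Benjamini-Hochberg over all genes tested. The test of polyclonal chronic against acute cells was also run on simulated reads, and its outcome is not given here. Intervals are 95% intervals from limma, and ratios are of mean RPKM. Intervals of counting error and the limit from 3 reads cover counting error only.

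The members and lists were chosen with earlier results of these data known. Further genes were named by a rule: from each list, up to 2 genes with the largest absolute change in each chronic comparison and with NAC against vehicle chronic cells, if called (adjusted p under 0.05), without overlap, and with the higher group's mean at RPKM 1 or above. Like genes are the 3 with the highest r, predicted genes left out. Lists share some genes (Txnrd1 and Sqstm1). Replicate numbers are shared within experiments. Deviations of same-numbered polyclonal libraries from their group means correlated for all 3 pairs (r of 0.446, 0.629 and 0.168) (a sign read off the values, since no label explains the numbers), but acute library 1 correlated more with chronic library 3 (r of 0.569) than with its own number, and acute library 3 with chronic library 1 at 0.134. In the other experiments they did not (r of -0.167 to 0.079). Other settings tried were no filter or one at RPKM 5, a pseudocount of 0.1, scaling of libraries to 1 median, fits of the compared groups alone, the replicate block, limma's voom with trimmed-mean factors on recovered reads and leaving out each library. After the data were seen, a fit without 3 libraries with raised low genes was added.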

Additional observations from a re-analysis of the deposited data

Results flagged for a closer look

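Effects of chronic stimulation on the 10 genes differed between experiments in 19 of 30 tested differences (limma, adjusted p under 0.05). Per pair of experiments, 5, 6 and 8 of the 10 differed, beside 55.8%, 52.4% and 58.5% of all genes. Such differences were thus common over all genes too, and whether the shares differ was not tested. Each is given as a log2 difference. OT-I minus polyclonal effects differed for Gpx4 (-0.63), Gpx8 (-0.82), Gsto1 (-1.81), Hmox1 (-2.46), Osgin1 (2.10). Vehicle minus polyclonal effects differed for Gpx1 (-1.26), Gpx8 (2.36), Gsto1 (-1.69), Hmox1 (-1.43), Osgin1 (1.26), Nfe2l2 (-0.52). OT-I minus vehicle effects differed for Gpx1 (1.02), Gpx4 (-1.01), Gpx8 (-3.19), Gsta4 (-1.08), Hmox1 (-1.03), Osgin1 (0.84), Nfe2l2 (0.63), Keap1 (0.19). Summed B cell markers (220 to 241 RPKM in polyclonal chronic libraries) and melanocyte markers (3929 RPKM or more in OT-I libraries) moved with the experiments, and their part was not tested. OT-I cells also differ from the other cells in receptor, stimulus and co-culture, which cannot be told apart.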

How the results depend on the processing

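The number of the 10 genes called stayed within 1.5 times its main value in all 8 comparisons under every alternative run. Leaving out 1 library gave 7 to 8 calls in polyclonal, 7 to 8 in OT-I and 6 to 8 in vehicle cells, 7 with NAC against vehicle chronic and 10 against vehicle acute cells, and 5 to 7, 6 to 8 and 6 to 8 for the OT-I minus polyclonal, vehicle minus polyclonal and OT-I minus vehicle differences. Estimates that changed sign were all uncalled: in polyclonal cells Gpx4 (0.04 with voom, 0.01 without the 3 libraries with raised low genes) and Nqo1 (0.20 with voom, 0.16 without those 3 libraries, and -0.30 to 0.39 over fits without 1 library each, with 0.39, 0.02 and 0.08 without polyclonal acute library 2, chronic library 1 or chronic library 3). With NAC against vehicle chronic cells, Gpx4 (-0.01) and Keap1 (-0.11) changed sign with rescaled libraries and Keap1 (-0.09) with voom, and the OT-I minus polyclonal difference of Gsta4 did (0.27, in a range of -0.76 to 0.27) without polyclonal acute library 1. The cause was not tested. With the replicate block, 75 of 80 results kept direction and call. In the polyclonal experiment the block changed the call of Gsta4 (-0.69, adjusted p = 0.00941) and no other, beside the vehicle minus polyclonal differences of Gsta4 (0.86) and Nqo1 (-0.80), which then passed. Elsewhere, where deviations of same-numbered libraries did not correlate, it moved Nqo1 in OT-I cells (-0.45, adjusted p = 0.0169) and the OT-I minus vehicle difference of Keap1 (0.19, adjusted p = 0.0512). Whether the numbers pair libraries in any experiment is not known. Without a filter all 80 results kept direction and call, and with a filter of RPKM 5 all 72 that could be tested did (Nqo1 fell out). Depth limits Gsta4, Gpx8 and Nqo1 most, with as few as 0, 4 and 12 reads in a library, and the Gpx8 level with NAC rests on 23 reads.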
